A study of Homo sapiens with 8 samples.

Results

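The comparison set HEK293 cells labelled shELL against control HEK293 cells, both given epidermal growth factor (EGF) at 50 ng/mL for 1 h. It was read from 2 shELL arrays with EGF and 2 control arrays with EGF, 4 of the 8 arrays of the study, chosen by their labels. HEK293 is a cell line made from human embryonic kidney. The shELL line was described as a stable knockdown of the elongation factor ELL, and the control line as wild type. The other 4 arrays held 2 shELL and 2 control samples that had no EGF, and the 2 arrays of every group were biological replicates. The sources used here do not name the hairpin against ELL or its promoter, nor say whether the line was 1 clone. The medium of every group was RPMI with 10% serum, and the labels' protocols name no withdrawal of serum before EGF.

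EGF binds its receptor and activates the RAS and MAP kinase cascade, which within minutes turns on immediate-early genes. Many of these genes encode transcription factors such as EGR1 and FOS, and others encode inhibitors of the pathway itself, such as the Sprouty proteins and the dual-specificity phosphatases. RNA polymerase II is often held near the start of such genes and is released by the kinase P-TEFb. ELL is a subunit of the super elongation complex, which carries P-TEFb and raises the rate of elongation. Targets of the coactivator YAP and of the serum response factor SRF include genes that encode matricellular and actin cytoskeleton proteins.

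Gene levels are given in log2 units after quantile normalization of the 8 arrays, and each difference is the shELL mean minus the control mean. A level of 2.77 served as background, the 95th percentile of the mean levels of 45 olfactory receptor genes over the 8 arrays. In 8264 of 16145 genes the higher of the group means with EGF lay above this level. It is 1 value for all arrays and not the floor of each array. The arrays differed in quality: deposited medians ran from 1.33 to 2.95, and the lowest was that of replicate 1 of shELL with EGF. Across genes, the replicate arrays correlated at r = 0.784 in shELL with EGF and r = 0.926 in control with EGF. Olfactory receptor genes, which should be silent here, had a median level of 2.46 and 1.29 on the shELL arrays with EGF, against 1.77 and 1.98 on the control arrays with EGF. GAPDH, a glycolytic enzyme used as a loading gene, was at 6.61 and 8.72 in shELL with EGF and at 7.48 and 6.85 in control with EGF. The part of these array differences in the results below was not tested.

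The targeted gene was read first. ELL was at 3.86 and 2.65 in shELL with EGF, against 2.57 and 2.88 in control with EGF, and the groups overlapped. The difference was 0.53, with a 95% interval from -0.39 to 1.45, and -0.08 without replicate 1 of shELL. The gene level was near background. Its probe set of highest signal was at 8.72 and 7.21 in shELL with EGF and at 6.82 and 7.46 in control with EGF. The ELL probe set of smallest p was at 4.07 and 3.33 in shELL with EGF and at 0.23 and 0.29 in control with EGF. Without EGF it was at 3.57 and 2.92 in shELL and at -0.46 and 1.02 in control. The other ELL probe sets kept differed in both directions with EGF, from -0.82 to 1.47. These arrays did not show the depletion that the label states, and the direction of each difference below rests on the labels. Among its relatives, ELL2 was at 2.86 and 3.60 in shELL with EGF and at 3.23 and 3.48 in control with EGF. EAF1, which binds ELL, was at 4.24 and 5.43 in shELL with EGF and at 4.68 and 4.73 in control with EGF.

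Markers of the cell line were measured on all 4 arrays. KRT8, a keratin of simple epithelia, was at 5.82 and 6.29 in shELL with EGF and at 6.10 and 6.12 in control with EGF. VIM, the intermediate filament vimentin, was at 4.68 and 6.24 in shELL with EGF and at 5.61 and 5.24 in control with EGF. Of 8 defining markers 6 lay above background, and the neurofilament gene NEFM and the kidney factor PAX2 did not. Markers of blood cells (0 of 7 measured above background) and hepatocytes (0 of 6) were absent by this measure. Fibroblast markers had 1 of 10 above background and endothelial markers 1 of 6, and keratinizing epithelium markers 5 of 10.

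No gene was called between the lines with EGF: limma's adjusted p was 0.834 at its lowest, for PCDHGC4, and 0 of 16145 genes (0%) lay under 0.05. At an unadjusted p under 0.05, 165 genes (1.02%) were higher and 346 (2.14%) were lower in shELL. Together these made 3.17% of genes, a smaller share than the 0.05 that this threshold passes where no gene differs. The split depended on the scaling, with 87 higher and 155 lower under quantiles over the arrays with EGF alone, 1 higher and 12 lower on the values as deposited and 19 and 298 after centring each array on its median. As deposited and after centring, the median difference of all genes was -0.17 and -0.25, against -0.04 in the main setting. Both shELL arrays lay above both control arrays for 1553 genes (9.62%) and below both for 2339 (14.5%). At least 1 log2 unit separated the means of such groups for 85 higher (0.526%) and 182 lower genes (1.13%). An exact permutation test of 2 arrays against 2 cannot give a p below 0.333, so none was run for single genes. The same 0.333 is the probability that exchangeable arrays do not overlap in 1 direction or the other. The shares without overlap were not above it. List counts set beside the shares of all genes below are therefore a description and not an excess over chance.

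The 2 shELL arrays did not repeat each other in how they differed from control. The difference of replicate 1 between the lines and the difference of replicate 2 correlated across genes at r = -0.37, and at r = -0.30 among genes above background. With the control arrays exchanged the values were r = -0.11 and r = -0.025. Genes are not independent replicates, and these coefficients describe the arrays. Among the 471 genes with a mean level over 6, the median difference was -0.19 with both shELL arrays, -0.65 with replicate 1 alone and 0.25 with replicate 2 alone. For the 3949 genes under a level of 2, the medians were 0.00, 0.28 and -0.31. Genes that stood apart from control on both shELL arrays are therefore described first, and lists of strongly expressed genes are given with each array.

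**Figure D1:**
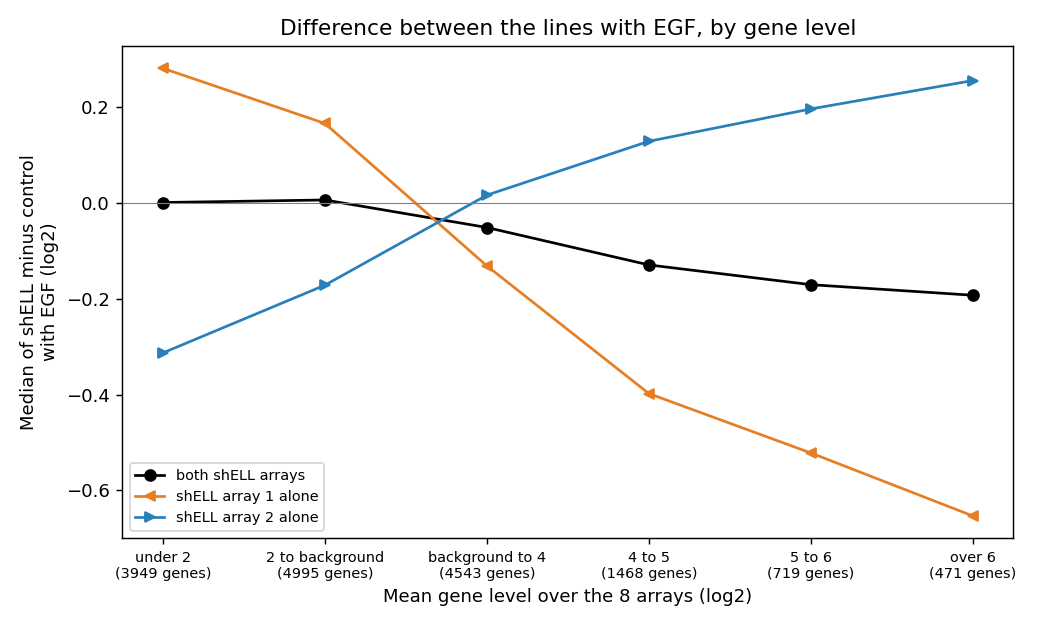
Median difference between shELL and control with EGF (log2, vertical axis) for genes grouped by their mean level over the 8 arrays (log2, horizontal axis). Black circles use both shELL arrays, orange triangles replicate 1 alone and blue triangles replicate 2 alone, each against the mean of both control arrays, and above a level of 6 these stand at -0.19, -0.65 and 0.25.

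ANKRD1, KRT17, THBS1, PCDHGC4 and MTHFS were among the genes higher in shELL with EGF. The genes named are the 12 of smallest p in each direction whose arrays did not overlap and whose higher group mean was above background. All 12 of the higher genes had a control mean below background, so they passed the background filter only through the shELL mean. Their differences are given in log2 units and not as folds. The choice used the same arrays, so the values are a description. Intervals given with the differences, here and below, are not adjusted for the number of genes tested. Choosing genes by smallest p favours large differences, and their intervals then exclude no difference by the choice itself. These intervals are therefore not estimates of precision, and the same holds for list members picked by p.

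ANKRD1 encodes a nuclear and sarcomeric ankyrin repeat protein and is a known target of YAP. It was at 4.13 and 5.85 in shELL with EGF, against 2.55 and 2.83 in control with EGF. Both shELL arrays lay above both control arrays, and the difference was 2.30 with an interval from 1.13 to 3.48. It was larger with replicate 2 of shELL (3.16) than with replicate 1 (1.44). Of its 14 probe sets, 13 were higher in shELL.

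THBS1 encodes thrombospondin, a matricellular glycoprotein. It was at 3.64 and 3.71 in shELL with EGF, against 2.62 and 2.41 in control with EGF. The arrays of each line lay close together and the difference was 1.16, with an interval from 0.44 to 1.88. All 24 of its probe sets were higher in shELL. They are shown in the plot of probe sets, together with those of ANKRD1 and of a pair of lower genes. A gene level is summarised from these same probe sets, so most tend to lie on its side by construction. Most did so in all 12 higher and all 12 lower genes. Probe sets of 1 array are not replicates, and such counts are a description.

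**Figure D2:**
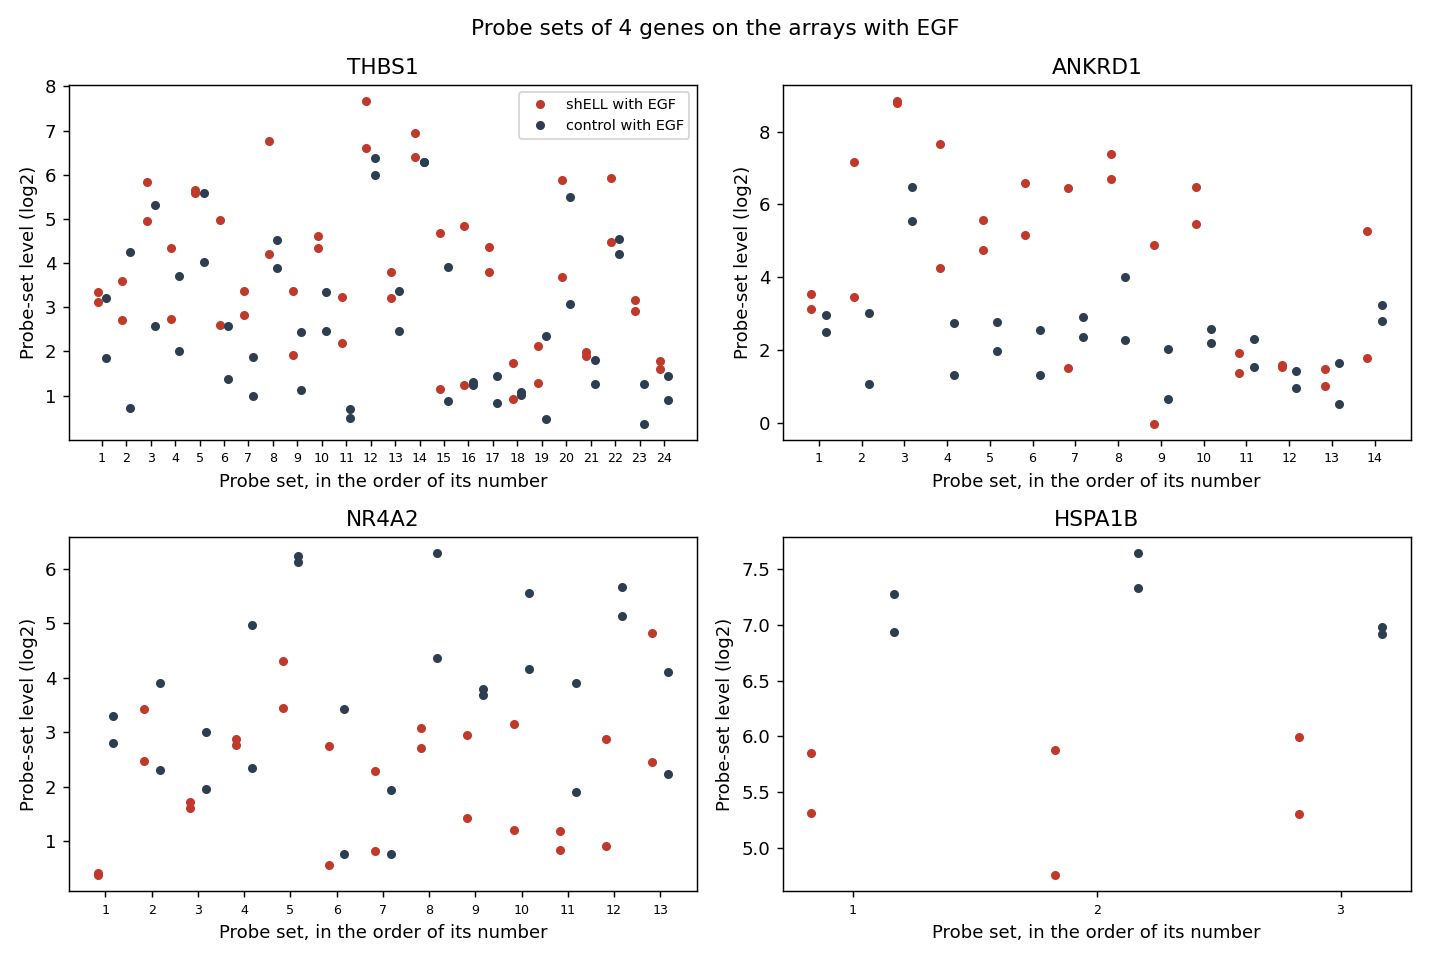
Probe-set levels (log2, vertical axis) of THBS1, ANKRD1, NR4A2 and HSPA1B on each array with EGF, with the probe sets of a gene in the order of their numbers along the horizontal axis. Red points are the 2 shELL arrays and dark points the 2 control arrays. The shELL mean was higher in 24 of 24 probe sets of THBS1 and 13 of 14 of ANKRD1, and lower in 11 of 13 of NR4A2 and 3 of 3 of HSPA1B. The genes were chosen by a summary of these same probe sets.

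KRT17, a keratin of basal and stressed epithelia, was at 4.11 and 4.75 in shELL with EGF, against 2.10 and 3.02 in control with EGF. The groups did not overlap, and the difference was 1.87 with an interval from 1.01 to 2.74. Of the other 9 measured markers of keratinizing epithelium, KRT16 was the next by p, at 3.07 and 2.77 in shELL with EGF and at 2.42 and 2.49 in control with EGF. The mean level of that marker list was 3.15 and 2.79 in shELL with EGF, against 2.45 and 2.80 in control with EGF, and its median difference was 0.16. Leaving out replicate 1 of shELL gave a list median of -0.01, and leaving out replicate 2 gave 0.47. TP63, the transcription factor of basal keratinocytes, was at 2.44 and 1.91 in shELL with EGF and at 2.03 and 2.39 in control with EGF, all below background. In bulk RNA, more cells of a type and more RNA per cell cannot be told apart.

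PCDHGC4, a clustered protocadherin of the gamma group that mediates cell adhesion, was at 3.80 and 3.44 in shELL with EGF and at 1.46 and 1.02 in control with EGF. Its difference of 2.38 had an unadjusted interval from 1.63 to 3.13 and rested on 3 probe sets. One of these differed by 3.14 and the others by 0.97 and 1.01, and the gene's difference was 0.195 with no filter on dim probe sets and 0.349 with quantiles over the arrays with EGF alone. PCDHGB5, of the same gene cluster, stood among the lower genes, at 2.23 and 2.56 in shELL with EGF and at 3.79 and 3.59 in control with EGF. Genes of this cluster share their last exons, so probe sets assigned to 1 of them are uncertain.

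MTHFS, an enzyme of folate metabolism, was at 3.92 and 3.85 in shELL with EGF and at 2.40 and 1.69 in control with EGF. All 7 of its probe sets were higher in shELL, and the difference was 1.84 with an interval from 1.08 to 2.60. PRR5L, a protein that binds the mTORC2 kinase complex, was at 3.49 and 3.44 in shELL with EGF and at 2.18 and 1.80 in control with EGF. It was higher in shELL in 12 of 14 probe sets, with a difference of 1.48.

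The remaining higher genes had differences between 1.35 and 1.65 and rested on 3 to 6 probe sets each. They were AVEN, an inhibitor of apoptosis, the water channel AQP5, HAMP, which encodes the iron hormone hepcidin, KRTAP4-7, a hair keratin-associated protein with close relatives in its cluster, C6orf62, and TMEM133, now listed as part of ARHGAP42. AQP5 was at 4.69 and 3.48 in shELL with EGF and at 2.53 and 2.34 in control with EGF. HAMP was at 3.75 and 2.32 in shELL with EGF and at 1.31 and 1.54 in control with EGF, so 1 of its shELL arrays was itself below background.

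HSPA1B, NR4A2 and SLC30A1 were among the genes lower in shELL with EGF. HSPA1B encodes the inducible chaperone HSP70. It was at 5.08 and 5.88 in shELL with EGF, against 7.33 and 7.65 in control with EGF. The gap between the nearest arrays of the lines exceeded the distance between replicates, and the difference was -2.01 with an interval from -2.79 to -1.24. All 3 of its probe sets were lower in shELL. HSPA1A, nearly identical in sequence, was at 4.98 and 5.98 in shELL with EGF and at 6.13 and 5.98 in control with EGF, a difference of -0.58 with an interval from -1.70 to 0.55. Signal of the 2 genes cannot be told apart with certainty, and the level of each is uncertain.

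NR4A2 encodes an orphan nuclear receptor that is an immediate-early gene. It was at 1.81 and 2.08 in shELL with EGF, below background, against 3.93 and 3.47 in control with EGF. The difference was -1.75 with an interval from -2.45 to -1.05, and 11 of 13 probe sets were lower in shELL. Without EGF it was at 1.46 and 1.30 in shELL and at 1.93 and 1.60 in control. With EGF both control arrays thus lay above background, while both shELL arrays lay below it.

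SLC30A1, which exports zinc from the cell, was at 2.49 and 2.09 in shELL with EGF and at 3.52 and 3.90 in control with EGF. All 5 probe sets were lower in shELL, with a difference of -1.43. HEY1, a transcriptional repressor downstream of Notch, was at 2.82 and 2.70 in shELL with EGF and at 4.31 and 3.96 in control with EGF. It was lower in shELL in 9 of 10 probe sets, with a difference of -1.37 and an interval from -2.17 to -0.57.

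FAM35A, now SHLD2, a subunit of the shieldin complex of DNA repair, was at 2.84 and 3.27 in shELL with EGF and at 4.98 and 5.11 in control with EGF. Its 5 probe sets were all lower in shELL, but the gene has near-identical copies and its level is uncertain. ZNF92, one of many similar zinc finger proteins, was at 3.04 and 3.95 in shELL with EGF and at 4.90 and 5.64 in control with EGF. ZNF711, a zinc finger protein of the X chromosome, was at 1.86 and 2.68 in shELL with EGF and at 3.67 and 3.61 in control with EGF. None of the arrays of the lines overlapped for these 3 genes, and the differences were -1.99, -1.77 and -1.37.

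The other lower genes were CHRNB2, a nicotinic acetylcholine receptor subunit, STARD3NL, a late endosomal membrane protein, the water channel AQP12A and FLJ43681. Their differences ran from -1.57 to -1.19. In 8 of the 12 lower genes the shELL mean was below background, NR4A2, SLC30A1, ZNF711 and AQP12A among them.

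**Figure D3:**
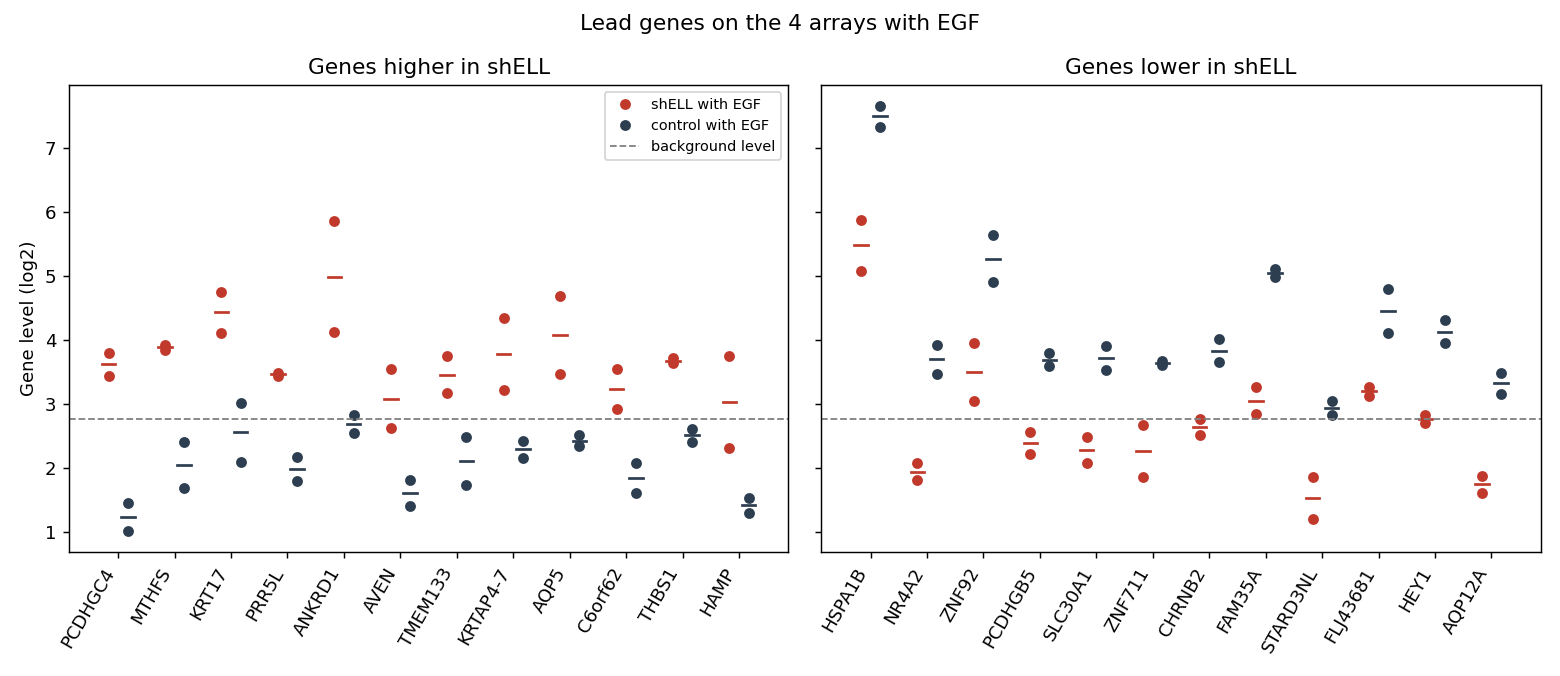
Levels (log2, vertical axis) of the 12 higher genes (left panel) and 12 lower genes (right panel) on the arrays with EGF. Red points are the 2 shELL arrays and dark points the 2 control arrays, short bars mark the group means and the dashed line marks the background level of 2.77. Points of the lines do not overlap in any of the 24 genes, which is how they were chosen.

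The 250 bases before the start of ANKRD1, THBS1 and HSPA1B are shown because these genes belong to programs with known promoter motifs. They were taken from RefSeq on GRCh38.p14, where 3 of 5 genes looked up (these and KRT17 and NR4A2) had an entry. The letters searched on both strands were GGAATG, bound by the TEAD partners of YAP, the heat shock patterns GAANNTTC and TTCNNGAA, and the CArG box of SRF by its name. Matches are in capitals, and a GGAATG match of ANKRD1 runs over into its GAANNTTC match. Each line runs 5′ to 3′ on the strand of the gene.

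ANKRD1 chr10:90921088-90921337, strand -: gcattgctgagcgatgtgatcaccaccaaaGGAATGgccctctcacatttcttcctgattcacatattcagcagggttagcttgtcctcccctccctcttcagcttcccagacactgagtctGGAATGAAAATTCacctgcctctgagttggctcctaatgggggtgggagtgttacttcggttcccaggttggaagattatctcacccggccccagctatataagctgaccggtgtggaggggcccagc
THBS1 chr15:39580829-39581078, strand +: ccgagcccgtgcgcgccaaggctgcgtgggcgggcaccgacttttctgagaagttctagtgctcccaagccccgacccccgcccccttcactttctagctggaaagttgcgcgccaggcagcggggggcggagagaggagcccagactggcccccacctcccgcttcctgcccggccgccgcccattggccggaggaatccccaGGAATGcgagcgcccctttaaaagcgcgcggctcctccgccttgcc
HSPA1B chr6:31827488-31827737, strand +: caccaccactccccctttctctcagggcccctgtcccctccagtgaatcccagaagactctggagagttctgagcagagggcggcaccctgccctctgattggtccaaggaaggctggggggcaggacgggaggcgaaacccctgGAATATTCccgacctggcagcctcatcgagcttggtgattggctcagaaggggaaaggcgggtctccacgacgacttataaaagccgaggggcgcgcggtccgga

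GGAATG occurred 2 times before ANKRD1, beginning 220 and 128 bases from the start, and 1 time before THBS1, 46 bases from it. It occurred 0 times before HSPA1B. Among 35116 promoter windows of the same length, 11.9% held it. GAANNTTC began 105 bases before the start of HSPA1B and 123 bases before that of ANKRD1, and 5.78% of windows held it. Neither TTCNNGAA (6.62% of windows) nor the CArG box (1.16%) had a match in the 3 windows. These matches describe letters and not bound sites.

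EGR1, a zinc finger transcription factor induced early by EGF, did not separate the lines with EGF. It was at 7.14 and 7.91 in shELL with EGF, against 7.69 and 7.57 in control with EGF, so the arrays overlapped. The difference was -0.10 with an interval from -0.85 to 0.64, and 0.28 without replicate 1 of shELL. The interval leaves room for a level up to 0.85 log2 units lower or 0.64 higher.

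Immediate-early transcription factors as a list lay near the median of all genes in the main setting. Of 33 measured members, 0 were higher and 3 lower at an unadjusted p under 0.05, beside 1.02% and 2.14% of all genes. None passed limma's adjustment. The median difference was -0.11, beside -0.04 for all genes, and 16 of the 33 differed by less than 0.25 log2 units. Relative to all genes the median was -0.20 as deposited and -0.21 after centring each array on its median. It was 0.04 and 0.02 without replicate 1 of shELL or of control with EGF. Arrays of the lines did not overlap for 6 higher and 5 lower members, beside 9.62% and 14.5% of all genes. The 3 lower members were NR4A2, FOS and IER5.

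FOS, a subunit of the AP-1 factor, was at 2.59 and 3.07 in shELL with EGF, against 4.06 and 3.54 in control with EGF. The difference was -0.97 with an interval from -1.82 to -0.13, and 7 of 8 probe sets were lower in shELL. FOSB, a close relative, was at 3.11 and 4.69 in shELL with EGF and at 5.23 and 4.52 in control with EGF, and its arrays overlapped. IER5, an immediate-early response gene, was at 2.82 and 2.93 in shELL with EGF and at 3.38 and 3.90 in control with EGF. JUN, the partner of FOS in AP-1, was at 5.75 and 5.87 in shELL with EGF and at 5.83 and 6.02 in control with EGF. IER2 and ATF3 also overlapped, with IER2 at 4.59 and 4.86 in shELL with EGF and at 5.04 and 4.79 in control with EGF.

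Feedback genes of the MAP kinase pathway and mRNA decay factors had a median difference of -0.10 over 26 members. The sign depended on the summary, with 0.06 under the median of the probe sets. As deposited and after centring each array on its median, the list stood at -0.31 and -0.38. At an unadjusted p under 0.05, 1 was higher and 1 lower, beside 1.02% and 2.14% of all genes. The arrays did not overlap for 4 higher and 7 lower members, beside 9.62% and 14.5% of all genes. SPRY4, a Sprouty inhibitor of receptor signalling, was at 1.56 and 2.51 in shELL with EGF, against 4.04 and 3.08 in control with EGF. The groups did not overlap, the difference was -1.53 with an interval from -2.57 to -0.49, and 5 of 6 probe sets were lower in shELL. Without EGF it was at 1.73 and 1.10 in shELL and at 1.18 and 1.71 in control. DUSP8, a phosphatase of stress-activated MAP kinases, was at 3.44 and 3.39 in shELL with EGF and at 2.97 and 2.31 in control with EGF. DUSP1, a phosphatase of the same family, was at 5.29 and 6.65 in shELL with EGF and at 5.79 and 5.43 in control with EGF, where the arrays overlapped.

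Among ligands and receptors of the EGF family, HBEGF stood apart at an unadjusted p under 0.05. It encodes heparin-binding EGF-like growth factor, a ligand of the EGF receptor. It was at 4.15 and 4.03 in shELL with EGF, against 3.32 and 2.72 in control with EGF, and the difference was 1.08 with an interval from 0.38 to 1.77. All 8 of its probe sets were higher in shELL, and without EGF the difference was 0.65. Of 14 ligands, receptors and adaptors measured, HBEGF was the 1 member at an unadjusted p under 0.05, where 3.17% of all genes were. The list median was 0.10, and 7 of the 14 lay above background.

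Targets of YAP had a positive median difference as a list, though only 7 of the 13 members lay above background. ANKRD1 and THBS1 did so only through the shELL mean. Of 13 measured members, 3 were higher and 0 lower at an unadjusted p under 0.05, beside 1.02% and 2.14% of all genes. Both shELL arrays lay above both control arrays for 6 and below them for 0, beside 9.62% and 14.5% of all genes. No member was called over all genes with limma. The median difference was 0.35, beside -0.04 for all genes. With replicate 1 of shELL alone it was 0.30 and with replicate 2 alone 0.48, while without replicate 1 of control it was 0.20. It was 0.17 on the values as deposited and 0.08 after centring each array on its median, where the median of all genes was -0.17 and -0.25. The list was chosen with earlier results of these data known, and its direction is not independent evidence.

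ANKRD1, THBS1 and AJUBA, listed on the array as JUB, were the 3 members. JUB encodes a LIM protein of cell junctions and was at 4.17 and 4.04 in shELL with EGF, against 3.21 and 3.48 in control with EGF. TEAD1, a DNA-binding partner of YAP, also had arrays that did not overlap, with a difference of 0.61. CTGF, now CCN2, and CYR61, now CCN1, are the best-known YAP targets, and their arrays overlapped with EGF. CTGF was at 7.43 and 7.91 in shELL with EGF and at 7.01 and 7.55 in control with EGF. CYR61 was at 5.36 and 6.75 in shELL with EGF and at 5.08 and 5.81 in control with EGF.

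CTGF had stood further apart without EGF, at 6.27 and 6.48 in shELL and at 3.35 and 4.49 in control. Its difference was 0.39 with EGF and 2.46 without, and that of CYR61 was 0.61 with EGF and 1.70 without. The interaction, which is the difference between the lines with EGF minus that without, was -2.07 for CTGF and -1.09 for CYR61. Neither was called, with limma's adjusted p at 1.00 for both.

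Actin cytoskeleton targets of SRF had a median difference of 0.34 over 19 members. At an unadjusted p under 0.05, 1 was higher and 0 lower, beside 1.02% and 2.14% of all genes. Arrays of the lines did not overlap for 9 higher and 3 lower members, beside 9.62% and 14.5% of all genes. CALD1, the actin-binding protein caldesmon, was at 4.03 and 3.42 in shELL with EGF, against 3.12 and 2.82 in control with EGF. ACTN1, which crosslinks actin filaments, was at 5.18 and 5.97 in shELL with EGF and at 4.79 and 4.76 in control with EGF. TPM4, a tropomyosin, was at 4.59 and 5.57 in shELL with EGF and at 4.39 and 4.34 in control with EGF. ACTA2, MYL9 and ACTG2, proteins of smooth muscle contraction, were the 3 whose shELL arrays were both lower, with differences of -0.31, -0.44 and -0.58. The list median was 0.45 without replicate 1 of shELL, 0.17 without its replicate 2, and 0.19 and 0.21 without replicate 1 or 2 of control. It was 0.10 on the values as deposited and 0.02 after centring each array on its median.

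ITGB3, an integrin subunit that binds matrix proteins, was at 3.16 and 3.02 in shELL with EGF and at 2.01 and 2.26 in control with EGF. It was the 1 of 27 matrix and adhesion genes at an unadjusted p under 0.05, where 3.17% of all genes were. The median of that list was 0.03. Of the 19 probe sets of ITGB3, 17 were higher in shELL.

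**Figure D4:**
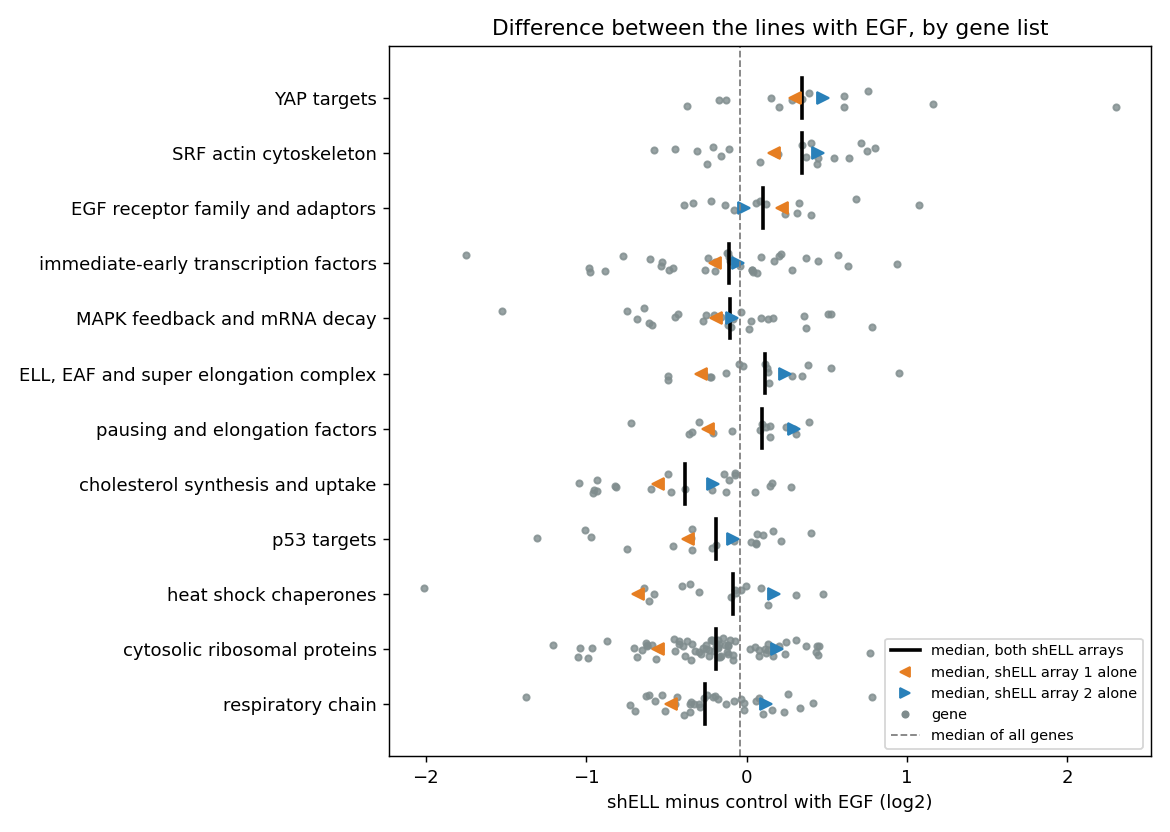
Differences between shELL and control with EGF (log2, horizontal axis) for the genes of 12 lists (grey points). Black bars mark list medians with both shELL arrays, orange triangles with replicate 1 alone and blue triangles with replicate 2 alone, and the dashed line is the median of all genes, -0.04. The YAP and SRF medians lie right of that line with either array, while the ribosomal and respiratory chain medians change sides.

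In 19 of the 27 lists the median had opposite signs with the one and the other shELL array. Cytosolic ribosomal proteins had a median of -0.19 over 73 genes, which was -0.55 with replicate 1 of shELL alone and 0.19 with replicate 2 alone. Respiratory chain genes had -0.26 over 36, with -0.47 and 0.12. The medians of heat shock chaperones, mitosis and DNA replication genes were -0.08, -0.12 and -0.07, and those of each changed sign in the same way. HSPA8, the constitutive HSP70, was at 7.83 and 10.12 in shELL with EGF and at 9.39 and 9.26 in control with EGF. No direction is given for these lists.

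Cholesterol synthesis genes were lower in 17 of 21 members, with a median of -0.38, or -0.55 and -0.21 with replicate 1 or 2 of shELL alone. It was 0.12 when replicate 1 of control with EGF was left out, so 1 control array decided its direction. SCD, a desaturase of fatty acids that is no member and is named after its values were seen, was at 5.10 and 4.89 in shELL with EGF and at 7.26 and 5.67 in control with EGF. FDFT1, the squalene synthase, was at 4.98 and 5.75 in shELL with EGF and at 6.63 and 6.001 in control with EGF. It was the 1 of 21 members at an unadjusted p under 0.05, beside 3.17% of all genes, with a difference of -0.96. INSIG1, a sterol sensor, was at 4.31 and 3.68 in shELL with EGF and at 6.09 and 3.81 in control with EGF, where only 1 control array stood apart.

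Of 19 targets of p53, 0 were higher and 2 lower at an unadjusted p under 0.05 (2.14% of all genes were lower at that p), and 11 had a negative difference. CCNG1, cyclin G1, was at 4.40 and 5.15 in shELL with EGF, against 6.43 and 5.74 in control with EGF, and 16 of 18 probe sets were lower in shELL. MDM2, the ubiquitin ligase of p53, was at 4.67 and 5.65 in shELL with EGF and at 6.09 and 6.25 in control with EGF. Of its 20 probe sets, 14 were lower and 6 higher in shELL. Its difference of -1.01 came to -0.16 in the setting nearest to 0. CDKN1A, the cell cycle inhibitor p21, was at 4.75 and 3.84 in shELL with EGF and at 4.35 and 4.11 in control with EGF, with overlap. The list median was -0.19, and -0.36 and -0.09 with replicate 1 or 2 of shELL alone.

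Among the super elongation complex and its partners, HEXIM1 was the 1 of 17 members at an unadjusted p under 0.05. For all genes the share was 3.17%. HEXIM1 encodes the inhibitor of P-TEFb and was at 5.55 and 4.90 in shELL with EGF, against 4.39 and 4.16 in control with EGF. Its difference was 0.95, but only 2 of 5 probe sets were higher in shELL, and the median of its probe sets gave -0.15. CDK9, the kinase of P-TEFb, was at 3.38 and 4.85 in shELL with EGF and at 4.68 and 4.53 in control with EGF. AFF4, the scaffold of the complex, was at 3.10 and 3.78 in shELL with EGF and at 3.31 and 2.997 in control with EGF. The median of the list was 0.12, and -0.29 and 0.24 with replicate 1 or 2 of shELL alone.

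Of the other list members at an unadjusted p under 0.05, IRS4 was the 1 of 8 cell line markers, beside 3.17% of all genes. It encodes an insulin receptor substrate and was at 2.47 and 2.95 in shELL with EGF, against 4.52 and 3.60 in control with EGF. Of its 14 probe sets, 13 were lower in shELL. COX5B, a subunit of cytochrome oxidase, was at 3.69 and 3.84 in shELL with EGF and at 5.31 and 4.96 in control with EGF. CEBPB and ATF4, transcription factors of the stress response, were higher by 0.85 and 0.82, and ATF4 was at 6.13 and 6.71 in shELL with EGF and at 5.83 and 5.37 in control with EGF. RPL41, a ribosomal protein, had a difference of -1.20, and its probe sets came from 4 chromosomes, which makes its level uncertain.

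Differences seen with EGF were then read on the arrays without EGF. These arrays gave no level to the differences that chose the genes, but they entered the shared variance and the normalization, so the counts are a description and not an independent repeat. Of the 12 higher genes 8 were also higher in shELL without EGF, and of the 12 lower genes 9 were also lower. In 6 of the 12 higher genes both shELL arrays lay above both control arrays without EGF, where 12.6% of all genes above background did so. The corresponding count for the lower genes was 6 of 12, where 17.4% did so. An unadjusted p under 0.05 in the same direction was found for 4 higher and 2 lower genes, where 0.78% and 0.496% of all genes had one. No gene was called without EGF (0%). Same-numbered shELL arrays with and without EGF deviated together from their group means at r = 0.51 across genes, and its part in these counts was not tested.

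KRT17, ANKRD1, THBS1 and PRR5L were the 4 higher genes. KRT17 was at 4.35 and 4.58 in shELL without EGF, against 2.34 and 2.49 in control without EGF. ANKRD1 was at 4.14 and 4.83 in shELL without EGF and at 2.43 and 2.24 in control without EGF. THBS1 differed by 1.16 with EGF and 1.12 without it, and its interaction was 0.04. The interactions of KRT17 and ANKRD1 were -0.18 and 0.15. HSPA1B and ZNF711 were the 2 lower genes, with differences of -1.08 and -0.89 without EGF.

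For other genes the difference without EGF was small or of opposite sign. NR4A2 differed by -0.39 without EGF, and its interaction was -1.36. MTHFS differed by 0.10 and SLC30A1 by -0.19 without EGF. C6orf62 differed by -0.53 and CHRNB2 by 0.28 without EGF, each against its direction with EGF. Of the 24 genes, 13 had an interaction at an unadjusted p under 0.05, where 1.73% of all genes did, but the interaction uses the arrays on which the genes were chosen. No interaction was called with limma (0%), so no difference was shown to be particular to the state with EGF.

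**Figure D5:**
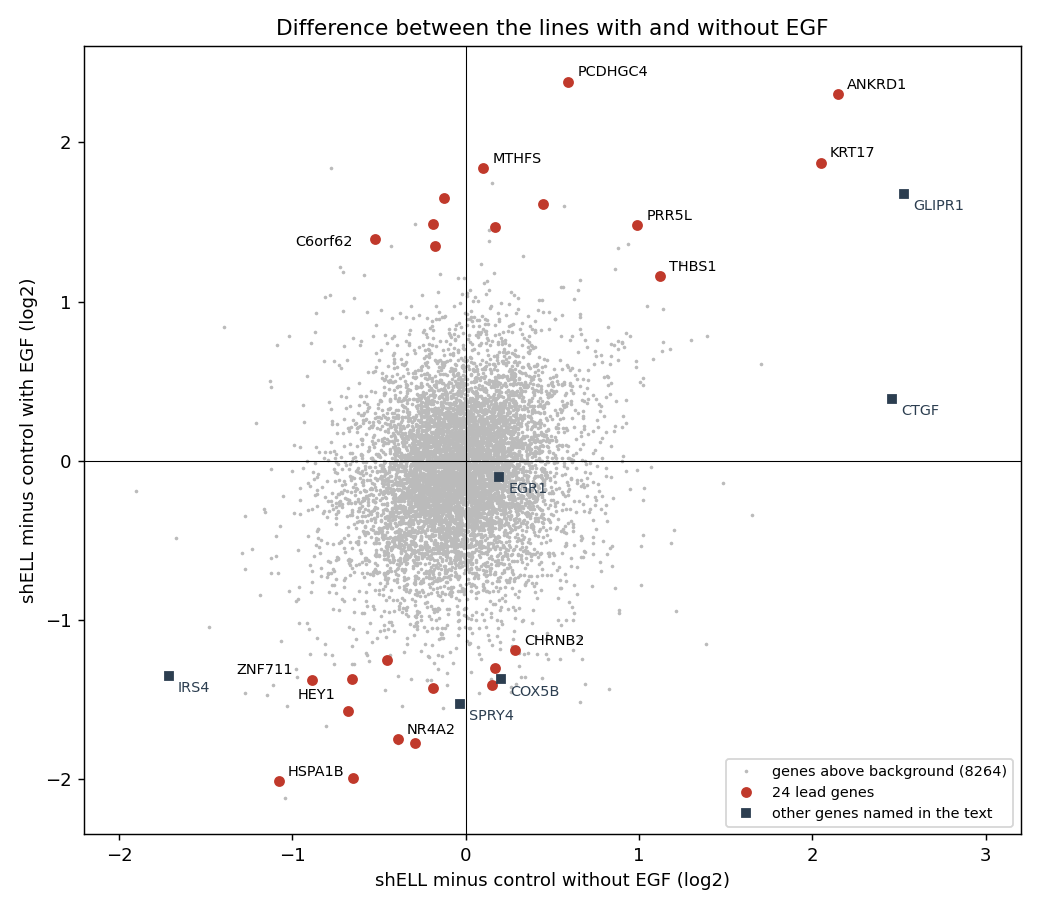
Difference between shELL and control with EGF (log2, vertical axis) against the same difference without EGF (log2, horizontal axis) for the 8264 genes above background (grey). Red circles are the 24 genes named by p and dark squares are other genes named in the text. ANKRD1, KRT17, THBS1 and GLIPR1 lie at the upper right, HSPA1B and IRS4 at the lower left, and NR4A2 and SPRY4 near 0 on the horizontal axis, while CTGF lies near 0 on the vertical one.

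Over the 8264 genes above background, the differences with and without EGF correlated at r = 0.19. With replicate 1 of shELL with EGF alone the value was 0.28, and with replicate 2 alone it was -0.08. The 4 arrays with EGF and the 4 without share no array. The sign agreement of all genes above background was 51.6% among those higher with EGF and 60% among those lower, beside 66.7% and 75% for the named genes.

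Genes with a mean level of at least 4 over the 8 arrays were listed separately, a setting chosen after seeing the data. There, 4 genes were at least 1 log2 unit higher and 40 at least 1 lower in shELL without overlap. The genes read were 1468 at a level of 4 to 5, 719 at 5 to 6 and 471 over 6. Of all genes, 0.526% were that far higher and 1.13% that far lower without overlap. Without replicate 1 of shELL, the array on which bright genes lay lower, 3 of the 4 and 7 of the 40 were still that far apart, and 4 and 38 were without replicate 2. The 4 higher genes were GLIPR1, TNFRSF12A, HRK and ANKRD27, and they too are named after their values were seen. GLIPR1, a secreted protein related to plant defence proteins, was at 4.37 and 5.70 in shELL with EGF, against 3.45 and 3.26 in control with EGF. Its difference was 1.68 with EGF and 2.53 without. TNFRSF12A, the receptor of the cytokine TWEAK, was at 6.60 and 6.83 in shELL with EGF, against 4.73 and 6.04 in control with EGF. HRK, an activator of apoptosis, differed by 1.17 with EGF and by -0.15 without.

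The 40 lower genes included HSPA1B, ZNF92, CCNG1, COX5B, MDM2 and SCD, described above. WRB, now GET1, which inserts tail-anchored proteins into the endoplasmic reticulum, was at 4.01 and 4.23 in shELL with EGF, against 5.43 and 5.25 in control with EGF. All 7 of its probe sets were lower in shELL, and its difference was -1.22 with EGF and -0.16 without. SLC2A14, a glucose transporter nearly identical to SLC2A3, was at 5.58 and 5.32 in shELL with EGF and at 6.65 and 6.34 in control with EGF. SLC2A3 itself was at 5.43 and 5.74 in shELL with EGF and at 6.15 and 6.12 in control with EGF, and their signals cannot be told apart with certainty. Without EGF, 3 of the 4 higher and 30 of the 40 lower genes had the same sign. Among genes above background, 51.6% of the higher and 60% of the lower ones did so. The median difference without EGF was itself negative at these levels, -0.09 at 4 to 5, -0.14 at 5 to 6 and -0.15 over 6.

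Single exons were read from 211764 probe sets. None was called with limma (0%), and 4506 (2.13%) were higher and 4660 (2.2%) lower in shELL at an unadjusted p under 0.05. The larger share of lower genes was thus not seen among single probe sets.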

How the data were processed

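Total RNA of 4 groups, 2 biological replicates each, was measured on Affymetrix Human Exon ST1.0 arrays. Log2 values per probe set were deposited, which the authors made with Affymetrix Expression Console and RMA, per the submitters' processing notes, and their versions and the genome build are not named in the sources used here. Because deposited medians differed between arrays, the 8 arrays were quantile-normalized. Of 287329 probe sets, 280649 had 1 gene symbol; those with a mean at or above the 25th percentile were summarised by median polish (at most 10 iterations) where a gene had at least 3, giving 16145 genes from 209106 probe sets. Symbols were checked against RefSeq: 14133 current, 1756 synonyms and 256 unmatched.

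The test was limma 3.58.1 under R 4.3.3 (input read with the R package data.table, whose version is 1.17.8), fitted to 4 group means over 8 arrays, 4 residual degrees of freedom, two-sided p-values and Benjamini-Hochberg adjustment over all genes at 0.05. The procedure was checked on simulated data with independent noise for each gene and array, unlike the shared deviations of these arrays given below. The check therefore does not show what size of difference these arrays could call. The number of arrays limits the precision of every value. Alternatives covered normalization, filter, summary, variance model, array weights, blocks and each array left out.

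Named genes were those called or, where fewer than 12 passed in a direction, the 12 of smallest p without overlap and above background, then ELL, EGR1, GAPDH, their relatives, cell line markers and, in 27 lists, members of smallest p. The members and lists were chosen with earlier results of these data known. Same-numbered arrays with EGF deviated from their group means with r = -0.31, so the numbers were not taken to pair them. Control with EGF also gave r = -0.24 with shELL and -0.16 with control without EGF. Among the other groups the numbers did go together. The values were r = 0.51 for shELL with and without EGF, 0.42 for shELL with EGF and control without, and 0.37 for shELL and control without EGF. Figures used matplotlib 3.10.9 under Python 3.11.15.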

Additional observations from a re-analysis of the deposited data

How the results depend on the processing

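The count of called genes, of called probe sets and of named genes with a called interaction was 0 in every setting run, among them the values as deposited, each array left out and both blocks. Quoted as higher and lower in shELL, the genes at an unadjusted p under 0.05 (165 and 346) became 1 and 12 on the values as deposited, 19 higher after array median centring, 87 and 155 with quantiles over the arrays with EGF alone, 72 and 170 with those arrays alone in the fit, 214 lower with the mean of the probe sets, 72 and 160 with array weights and 13 and 60 among genes with a mean level of at least 4. With the replicate number as a block they were 218 and 372. With the control numbers crossed in the block they were 372 and 647. Leaving out 1 array gave 113 to 1384 higher and 209 to 1501 lower, with 324 and 621 without replicate 1 of shELL with EGF and 1384 and 1501 without replicate 2. Genes without overlap and at least 1 log2 unit apart (85 and 182) became 10 and 97 as deposited, 18 and 342 after median centring, 35 and 80 with no filter, 279 lower with the 50th percentile filter, 55 and 91 with the mean and 255 and 431 with the median of the probe sets, and 4 and 40 at a mean level of at least 4. Leaving out 1 array gave 85 to 1101 and 182 to 1044, where a group of 1 array overlaps less by construction.

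The ELL difference ran from -0.082 to 1.14 with 1 array left out and was -0.082 without replicate 1 of shELL with EGF. The 24 named genes kept their direction in every setting that measured them. Their choice fixes this for the arrays left out and for settings that change only the fit. Of the 24, 18 came out over 1.5 times smaller in some setting. With no filter on dim probe sets PCDHGC4 was at 0.195, TMEM133 at 0.361, ZNF92 at -0.370 and AQP12A at -0.250, and with the median of the probe sets PCDHGB5 was at -0.299. Signs turned for CTGF (-0.30 as deposited and -0.39 after median centring), for ATF4 (-0.058), HEXIM1 (-0.149) and EGR1 (0.19) with the median of the probe sets, for EGR1 (0.283) without replicate 1 of shELL with EGF and for CYR61 (-0.085) without replicate 2. Over the arrays left out, EGR1 ran from -0.488 to 0.283 and CYR61 from -0.085 to 1.30. Relative to the median of all genes, the YAP and SRF medians stayed above 0 in 20 of 20 settings. The cholesterol median stayed below 0 in 19 of 20. Settings that changed only the fit or left out an array without EGF could not move these medians, and they add nothing to these counts. The crossed block and the level of at least 4 were chosen after seeing the data. The other causes were not tested, and signal near background limits what dim genes can show.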

Other observations

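Some single probe sets of genes that were not themselves far apart differed widely between the lines with EGF, and these are named after their values were seen. A probe set of SCPEP1, a serine carboxypeptidase, was at 4.75 and 4.94 in shELL with EGF, against 1.00 and 0.47 in control with EGF, and at 4.46 and 5.03 in shELL and 4.41 and 5.21 in control without EGF. A probe set of ANKRD17 was at 4.77 and 3.64 in shELL with EGF and at 0.15 and 0.02 in control with EGF, and one of JMJD1C, a protein with a histone demethylase domain, was at 5.62 and 4.76 in shELL with EGF and at 0.76 and 1.05 in control with EGF. Without EGF, the 4 arrays lay between 2.95 and 4.03 for ANKRD17 and between 2.87 and 4.60 for JMJD1C. In the opposite direction, a probe set of LCP2, an adaptor of immune receptors, was at 0.62 and -0.25 in shELL with EGF and at 5.14 and 5.04 in control with EGF, and lay at 0.49 or lower on the 4 arrays without EGF. A probe set of HSPA1L, a neighbour of HSPA1B in the same family, was at -0.32 and 0.57 in shELL with EGF and at 4.35 and 4.44 in control with EGF. None of these probe sets was called with limma, and they were picked among those of smallest p of 211764. Those of ANKRD17, JMJD1C, LCP2 and HSPA1L cover short stretches, for LCP2 from 169689722 to 169689746 on chromosome 5. The number of probes behind each was not read.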
